A study of Mus musculus with 6 samples.

Results

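The apolipoproteins were compared in the liver of A/J and A/J-12SM mice, and Apoa4 was the gene of this family whose mRNA signal passed the test, with a lower level in A/J-12SM mice. The family was taken as 10 genes, Apoa1, Apoa2, Apoa4, Apoa5, Apob, Apoc1, Apoc2, Apoc3, Apoe and Apom, and as all probe sets annotated to exactly 1 of them, which gave 16 of 45037 probe sets and 10 of 18193 genes. The rule does not use the measured values, but the members were chosen with earlier results of these data known. Male mice of both strains had received the high-fat diet for 7 weeks. A/J-12SM is a consomic strain, in which chromosome 12 of the A/J mouse is replaced by that of the SM/J mouse, while all other chromosomes are those of A/J. Each strain has 3 liver arrays, labelled as biological replicates. For its epididymal fat arrays the study describes pooling the RNA of 3 mice per array. If the liver replicates are pools as well, the spread between single animals was not measured. The labels used here give no age for these mice.

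Apolipoproteins are the proteins that hold lipoprotein particles together and direct them to enzymes and receptors. The liver secretes triglyceride in very low density lipoprotein, each particle of which is built on 1 molecule of apolipoprotein B, and it supplies most of the apolipoproteins of high density lipoprotein. The small exchangeable apolipoproteins move between particles, where Apoc2 activates and Apoc3 inhibits lipoprotein lipase, and Apoe binds to the receptors that clear the remnants. In the mouse 4 members (Apoa1, Apoc3, Apoa4 and Apoa5) lie side by side in 43.3 kb of chromosome 9, and Apoc2, Apoc1 and Apoe lie in 29.7 kb of chromosome 7. Apoa2 is on chromosome 1 and Apom on chromosome 17. Apob is on chromosome 12, from 7977629 to 8016839 of GRCm38.p6, in the segment that the study calls R2, and is the member that differs in origin between the strains.

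The signal of a probe set, which combines several short probes of a transcript, is given here as its log2 value after quantile normalization, which brings all arrays to a common distribution. The normalization was used because the arrays of A/J-12SM were dimmer, with a mean signal (2% trimmed from either end) of 171 to 186 against 201 to 213. Differences are A/J-12SM minus A/J, and adjusted p-values are from limma with Benjamini-Hochberg adjustment over all probe sets, with a call at an adjusted p under 0.05. Where a gene has several probe sets, it is represented by the one with the highest mean over all 6 arrays (the brightest). As a control of RNA quality, the actin signal at the 5′ end divided by that at the 3′ end was 0.423 in A/J-12SM replicate 3 and 0.553 to 0.59 in the other arrays, while the same ratio of Gapdh lay between 1.45 and 1.55 in all arrays.

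Of the 16 apolipoprotein probe sets 2 were called, both of Apoa4 and both lower in A/J-12SM mice, where the share of all probe sets called was 0.0555% in either direction and 0.0311% for lower values. By the brightest probe set the strains did not overlap in 3 of the 10 genes, against 12.3% of all genes. These were Apoa4 and Apoc2 with lower and Apom with higher values. By probe sets the strains did not overlap in 4 of 16, against 12% of all. Above the 99th percentile of brightness, where most of the 16 lie, the share without overlap was 23.3%. Apoa4, Apoc2 and Apom also had an unadjusted p under 0.05, which 6.78% of all genes had. Lower values in A/J-12SM were found in 3 and higher values in 7 of the 10 genes, with a median difference of 0.01 on the log2 scale, and over all genes 50.9% were lower with a median of -0.01. In 6 genes (Apoa1, Apoa2, Apoa5, Apoc1, Apoc3 and Apoe) the difference lay between -0.04 and 0.05.

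**Figure D1:**
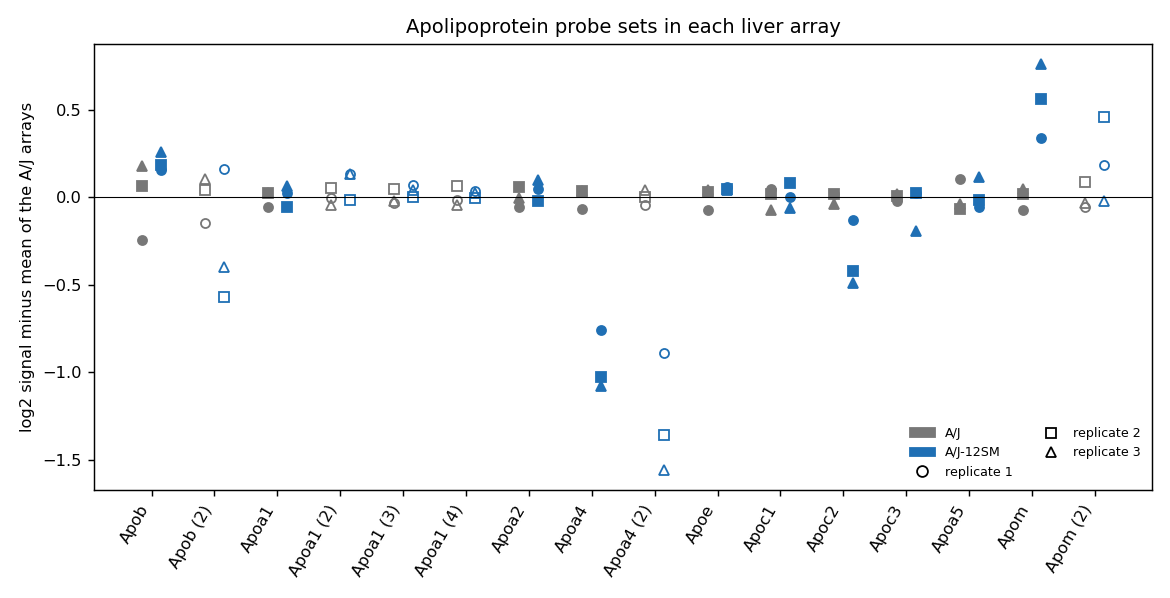
Normalized log2 signal of the 16 apolipoprotein probe sets (x axis, with a number in brackets for the dimmer probe sets of a gene) in each array, as the difference from the mean of the A/J arrays (y axis, log2); filled points are brightest probe sets and open points the others. Both Apoa4 probe sets lie below 0 in all 3 A/J-12SM arrays, and most other members lie close to 0 in all 6 arrays.

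Apoa4, a lipid-binding protein of chylomicrons and high density lipoprotein, lies on chromosome 9 from 46240844 to 46243458 of GRCm38.p6. By its brightest probe set (1436504_x_at) A/J replicates 1, 2 and 3 had a log2 signal of 12.18, 12.28 and 12.28, and those of A/J-12SM one of 11.49, 11.22 and 11.17. The A/J arrays were close together and all above the A/J-12SM arrays, of which replicate 1 was the highest. Apoa4 mRNA signal fell by 0.96 on the log2 scale, to 0.515-fold (SE 0.10, 95% interval of the fold 0.442 to 0.601, adjusted p = 0.0141 from limma). The other probe set (1417761_at) gave 11.74, 11.79 and 11.83 in A/J against 10.90, 10.43 and 10.23 in A/J-12SM mice. Its arrays were in the same order within A/J-12SM, and it fell by 1.27, to 0.416-fold (SE 0.15, adjusted p = 0.0219 from limma). The suffix x_at marks a probe set with probes that can match other transcripts, and 1417761_at does not carry it. As deposited, the A/J signals of 1417761_at were 3711, 3597 and 3917 and those of A/J-12SM were 1734, 1330 and 1115, and the log2 difference without normalization was -1.45.

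For each Apoa4 probe set the exact two-sided permutation test gave p = 0.1, the smallest value that 3 arrays against 3 allow. The call depended on single arrays and on the estimate of the spread, and its direction did not. Without A/J-12SM replicate 3 the brightest probe set fell by 0.90 (adjusted p = 0.0167 from limma), and it was also called without A/J-12SM replicate 1 (0.00913), but it was lost on leaving out A/J replicate 1 (0.0598), 2 (0.125) or 3 (0.12) or A/J-12SM replicate 2 (0.0848). The other probe set was called or lost with the same arrays, at 0.00372 and 0.0299 where called and 0.116 to 0.182 where lost. For the brightest probe set it was 0.248 with each array centred on its median and 0.438 with 1 prior variance for all probe sets. On simulated arrays of this design the same fit made more false calls than the threshold implies, which is a further limit of the call.

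**Figure D2:**
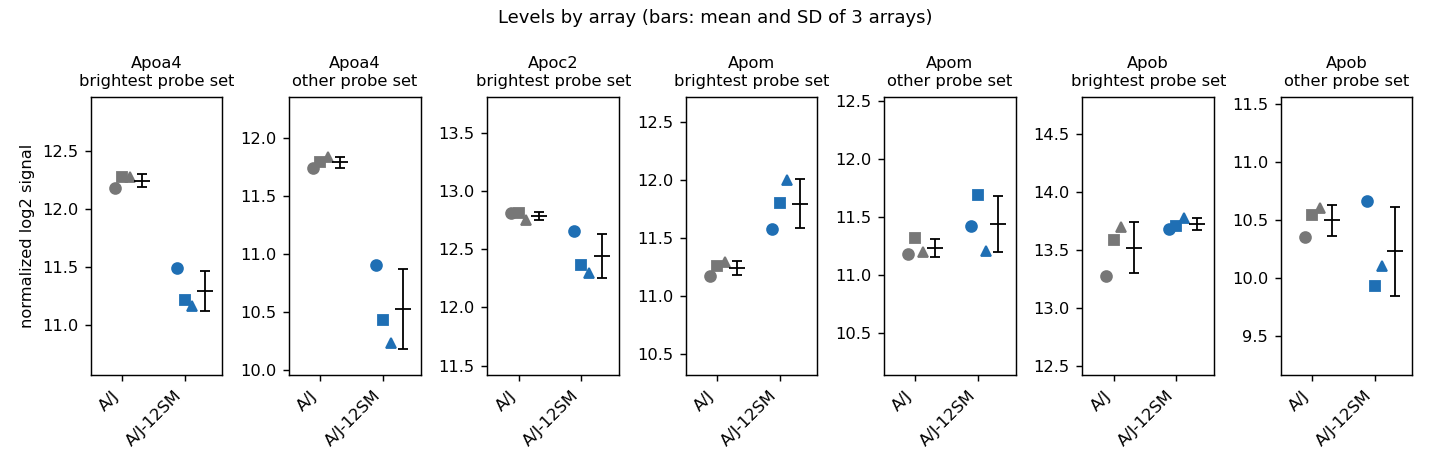
Normalized log2 signal (y axis, each panel spanning the same range of 2.4 units) of the probe sets of Apoa4, Apoc2, Apom and Apob in A/J (grey) and A/J-12SM (blue) arrays; circles, squares and triangles are replicates 1, 2 and 3, and bars are the mean and SD of 3 arrays. The strains are apart in both Apoa4 panels, in Apoc2 and in the brightest Apom probe set, and overlap in the other Apom probe set and in both Apob panels.

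The neighbours of Apoa4 on chromosome 9 had differences near 0. Apoa1 starts 12.2 kb before it and Apoc3 7.8 kb before it, and Apoa5 starts 27.8 kb after it. Their differences were 0.01 (SE 0.09), -0.04 (SE 0.09) and 0.01 (SE 0.09), and none passed (adjusted p from 0.959 to 0.989 from limma). The other measured genes that reach within 100 kb (Sik3, Zpr1, Bud13 and 4931429L15Rik) lay between -0.11 and 0.12, and the arrays of the strains overlapped in each. Whether Apoa4 differs from these neighbours was not tested as such.

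**Figure D3:**
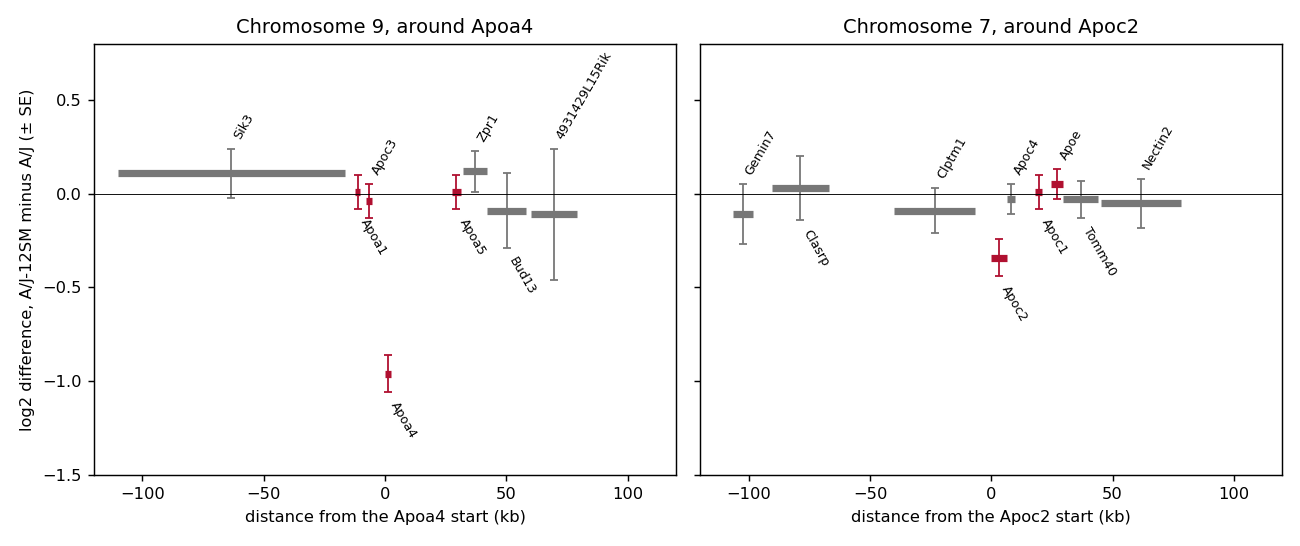
Difference in log2 signal (A/J-12SM minus A/J, y axis, with the SE from limma) for genes at or above the median brightness around Apoa4 on chromosome 9 and Apoc2 on chromosome 7, by distance from the start of each (x axis, kb); thick lines span the gene, apolipoproteins of the list are red, and Sik3 is cut off at the left edge. Apoa4 at -0.96 and Apoc2 at -0.34 lie below their neighbours, which range from -0.11 to 0.12.

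The bases upstream of the start sites are shown for Apoa4 and Apoc2, the members with lower values and no overlap of the strains, for Apoa5, a neighbour of Apoa4 with no detectable difference, and for Apob, the member on chromosome 12. They are 250 bases each, 5′ to 3′ on the strand of the gene, from the RefSeq annotation of GRCm38.p6, so they are those of the C57BL/6J reference and not of A/J or SM/J. The Apob window ends at 7977676, past the gene start at 7977629, so its last bases lie within the gene as given above. Apoa5 has another window, from 46268383, that is not shown. Capitals mark matches on either strand to the motifs TATAAA (a core promoter element), CAAAGTNCA (a form of the HNF4 site, with N for any base), AGGTCA (bound by nuclear receptors), TGACG (bound by CREB-type factors), CACGTG (E-box), GTTAAT (part of the HNF1 site) and CCAAT. None of these motifs contains another.
Apoa4, chr9:46240594-46240843, plus strand: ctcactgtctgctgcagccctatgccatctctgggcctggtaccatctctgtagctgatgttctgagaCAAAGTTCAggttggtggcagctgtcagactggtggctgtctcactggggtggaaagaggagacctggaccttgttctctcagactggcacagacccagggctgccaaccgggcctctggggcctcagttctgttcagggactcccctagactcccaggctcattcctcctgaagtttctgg
Apoc2, chr7:19677942-19678191, minus strand: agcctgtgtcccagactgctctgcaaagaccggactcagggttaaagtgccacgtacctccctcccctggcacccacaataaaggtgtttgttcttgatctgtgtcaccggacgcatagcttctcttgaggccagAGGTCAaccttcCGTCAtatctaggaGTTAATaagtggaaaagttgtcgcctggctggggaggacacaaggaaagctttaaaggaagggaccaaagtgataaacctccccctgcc
Apoa5, chr9:46268358-46268607, plus strand: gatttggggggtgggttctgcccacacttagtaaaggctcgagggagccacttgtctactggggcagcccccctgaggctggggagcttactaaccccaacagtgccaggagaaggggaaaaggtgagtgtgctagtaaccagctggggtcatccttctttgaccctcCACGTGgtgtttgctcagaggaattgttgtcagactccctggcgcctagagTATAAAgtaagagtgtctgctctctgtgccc
Apob, chr12:7977427-7977676, plus strand: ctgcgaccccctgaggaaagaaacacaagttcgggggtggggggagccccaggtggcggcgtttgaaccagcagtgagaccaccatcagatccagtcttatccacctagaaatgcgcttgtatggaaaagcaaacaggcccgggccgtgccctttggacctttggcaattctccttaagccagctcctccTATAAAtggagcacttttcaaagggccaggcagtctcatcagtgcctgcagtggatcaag

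The Apoa4 window held 1 match, CAAAGTTCA, from 182 to 174 bases before the start, and this motif was found in 1.19% of 32851 such windows of all genes and in no other of the 12 windows of 8 matched members (Apoc1 and Apoc3 are not among them). The Apoc2 window held AGGTCA from 115 to 110, the reverse of TGACG from 103 to 99 and GTTAAT from 89 to 84 bases before the start, motifs that occur in 14%, 17.8% and 6.43% of all windows. The Apoa5 window had CACGTG (6.02% of all windows) and TATAAA (12.4%), and the Apob window had TATAAA. The Apoa1 and Apom windows held no match to these letters. CCAAT, found in 33.8% of all windows, was matched in both Apoa2 windows. These are matches of letters in the reference and do not show binding.

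Among the proteins that control the hydrolysis of plasma triglyceride, Apoc2 had lower values in A/J-12SM mice, and Apoc1, Apoc3 and Apoa5 did not differ detectably. Apoc2, the activator of lipoprotein lipase, gave 12.81, 12.81 and 12.75 in A/J against 12.66, 12.37 and 12.30 in A/J-12SM mice. All 3 A/J-12SM arrays lay below the A/J arrays, with replicate 1 the nearest to them, as for Apoa4. The difference of -0.34 (SE 0.10, 0.788-fold, 95% interval of the fold 0.670 to 0.926) had an unadjusted p of 0.00831 but an adjusted p of 0.622 from limma, so that it was not called. It was -0.27 without A/J-12SM replicate 3 and -0.45 without A/J-12SM replicate 1, and the exact two-sided permutation test gave its smallest value of 0.1. Apoc3, the inhibitor of the same lipase, gave 13.91, 13.94 and 13.95 in A/J against 13.96, 13.96 and 13.74 in A/J-12SM mice. The low value of replicate 3 set its difference of -0.04 (95% interval -0.25 to 0.16), which was 0.03 without that array. Apoa5, which promotes hydrolysis by the lipase, had 14.01, 13.84 and 13.87 in A/J against 13.85, 13.89 and 14.02 in A/J-12SM mice, and these overlapped fully (difference 0.01, 95% interval -0.19 to 0.22). Apoc1, which hinders uptake and remodelling of particles, gave 14.02, 13.99 and 13.90 against 13.97, 14.05 and 13.91, with a difference of 0.01 (95% interval -0.19 to 0.20). On chromosome 7 Apoc4, which is not a member, starts 6.5 kb from Apoc2 and had a difference of -0.03 (SE 0.08).

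Apom, a lipocalin that carries sphingosine 1-phosphate on high density lipoprotein, had higher values in A/J-12SM mice by its brightest probe set (1419095_a_at). By array it gave 11.17, 11.26 and 11.29 in A/J against 11.58, 11.8 and 12 in A/J-12SM mice, without overlap. The difference of 0.55 (SE 0.11, 1.47-fold, 95% interval of the fold 1.24 to 1.74) had an unadjusted p of 0.000577 but an adjusted p of 0.317 from limma, so that it was not called. The other Apom probe set (1419096_at) gave 11.18, 11.32 and 11.20 in A/J against 11.42, 11.69 and 11.21 in A/J-12SM mice, with overlap and a difference of 0.21 (SE 0.12, adjusted p = 0.833 from limma). The probe sets disagreed most in A/J-12SM replicate 3, which was the highest array by the first and close to the A/J arrays by the second. Without A/J-12SM replicate 3 the differences were 0.45 and 0.32.

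The structural proteins of high density lipoprotein did not differ detectably. Apoa1, its main protein and the activator of lecithin-cholesterol acyltransferase, had 4 probe sets with differences of 0.01, 0.08, 0.03 and 0.02 (SE 0.08 to 0.09). The brightest of them gave 14.50, 14.58 and 14.58 in A/J against 14.58, 14.50 and 14.62 in A/J-12SM mice, and the 95% interval of its difference was -0.18 to 0.21. Apoa2, the second protein of these particles, gave 14.18, 14.29 and 14.23 against 14.28, 14.21 and 14.33, with a difference of 0.04 (95% interval -0.16 to 0.23). In both genes the arrays of the strains were interleaved. Apoe, the ligand of remnant receptors, gave 14.00, 14.10 and 14.11 in A/J against 14.13, 14.12 and 14.11 in A/J-12SM mice. Its difference was 0.05 (95% interval -0.14 to 0.24), and the low A/J array was replicate 1. For the 6 genes with differences near 0 the intervals together span -0.25 to 0.24.

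Apob, the scaffold of very low and low density lipoprotein, lies on the chromosome that was exchanged, and its probe sets went in opposite directions. The brightest (1455593_at) gave 13.28, 13.59 and 13.70 in A/J against 13.68, 13.71 and 13.78 in A/J-12SM mice, a difference of 0.20 (SE 0.11, 95% interval -0.06 to 0.45, adjusted p = 0.833 from limma). The A/J-12SM arrays were close together, and the A/J arrays were spread out with replicate 1 the lowest. Without A/J replicate 1 the difference was 0.08. The other probe set (1457554_at) gave 10.35, 10.54 and 10.60 in A/J against 10.66, 9.93 and 10.10 in A/J-12SM mice, a difference of -0.26 (SE 0.17, 95% interval -0.64 to 0.11, adjusted p = 0.847 from limma). Here A/J-12SM replicate 1 was the highest of all arrays and replicates 2 and 3 the lowest, and without replicate 1 the difference was -0.48. Since the Apob sequence of A/J-12SM mice is that of SM/J, a sequence difference under the probes and a difference in mRNA cannot be told apart on these arrays.

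Most members are among the strongest signals of the liver array, and whether this narrows the differences that it shows was not tested. Of the 16 probe sets 11 are in the brightest 1% of all probe sets, and the brightest probe set of Apoa1 was the highest signal of A/J-12SM replicate 3. In the 6 genes with differences near 0 the highest signal of an array was 1.0 to 1.79 times the gene's own. For both Apoa4 probe sets it was 4.64 to 21.0 times their own. Of the 451 probe sets in the brightest 1%, none was called (0% of them), 34 had an unadjusted p under 0.05 (7.54%), and in 23.3% the strains did not overlap. The small differences of these genes moved with the scaling of the arrays. Without normalization the median difference was -0.22 over all probe sets and -0.09 over the brightest 1%. Centring the arrays on their medians gave the 10 apolipoproteins a median of 0.20 and the brightest 1% one of 0.15. The direction of Apoa1, Apoa5, Apoc1 and Apoc3 changed with the scaling. The directions of Apoa4, Apoc2, Apom and both Apob probe sets did not.

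**Figure D4:**
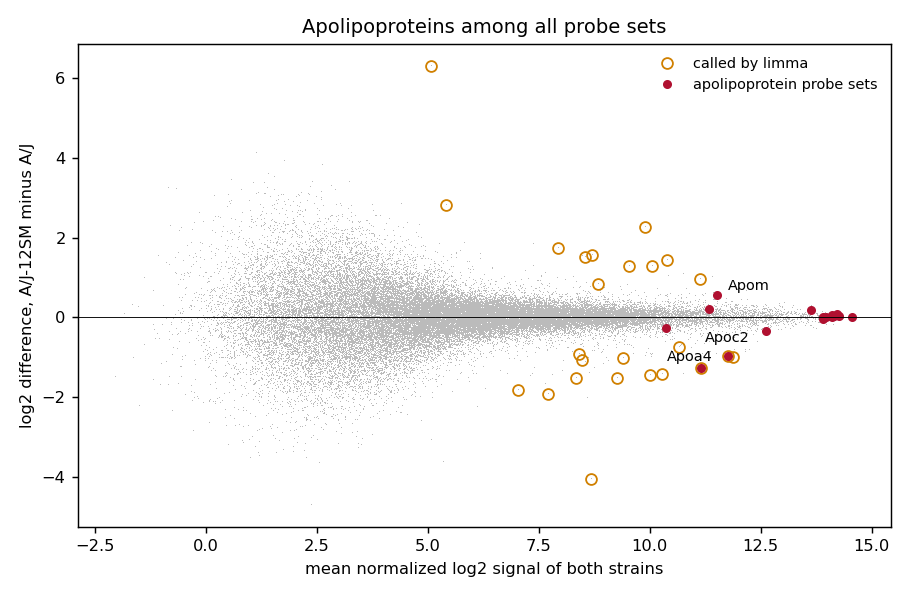
Difference in log2 signal (A/J-12SM minus A/J, y axis) against the mean log2 signal of both strains (x axis) for 45037 probe sets (grey), with the 25 called by limma ringed and the 16 apolipoprotein probe sets in red. The Apoa4 probe sets lie at -0.96 and -1.27, and most of the other members are at the bright end near 0.

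Hepatocytes make the apolipoproteins of liver. Of 6 measured markers of these cells (Alb, Ttr, Ahsg, Fgb, Serpinc1 and Hnf4a) 5 had lower values, from -0.03 to -0.01, and Alb, albumin, had a higher one without overlap (0.11, SE 0.08). None of the 6 was called. All but Hnf4a are in the brightest 1% of probe sets, and whether this narrows their differences was not tested. Apoa4 is also made by the intestine, and of 7 measured markers of intestinal epithelium only Fabp2 was at or above the median brightness. The others (Vil1, Cdx1, Cdx2, Lct, Muc2 and Krt20) were dim, with log2 means from 1.28 to 5.20, of which Cdx1 had higher and Muc2 lower values in A/J-12SM mice without overlap. Fabp2, a fatty acid binding protein known from enterocytes, gave 12.24, 12.40 and 12.46 in A/J against 11.98, 11.82 and 12.27 in A/J-12SM mice, a difference of -0.34 (SE 0.12, adjusted p = 0.728 from limma). Macrophages also express Apoe, and the 12 markers of Kupffer cells and macrophages were each lower in A/J-12SM mice, by a median log2 difference of -0.27 and a mean level of 8.83 to 9.16 in A/J and 8.49 to 9.0 in A/J-12SM arrays. None of them was called and 1 of them, Cd5l, was without overlap, against 12.3% of all genes. Their part in the Apoe value was not tested. Fewer cells of a type and less RNA per cell cannot be told apart in whole liver. Of 9 markers of stellate cells 8, of 7 of endothelium 2, of 4 of bile duct 1, of 3 of adipocytes 1, of 4 of lymphocytes 3 and of 2 of red blood cells none had higher values, and no marker of any list was called.

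Other genes of lipoprotein metabolism were described by lists, and no gene outside the 10 members was called in them, where 0.066% of all genes were called. Of 8 other apolipoproteins 5 had lower and 3 higher values, with a median of -0.02. Among them Apon, a secreted liver apolipoprotein, gave -0.25 (SE 0.08, unadjusted p = 0.016, adjusted p = 0.708 from limma) and Apof -0.14 (SE 0.09). Both were without overlap of the strains, as were 12.3% of all genes. Of 12 genes of assembly and secretion 9 had lower and 3 higher values, with a median of -0.11 and a range of -0.27 to 0.51. In 5 of them the strains did not overlap, against 12.3% of all genes. An unadjusted p under 0.05 was found for 1 lower and 2 higher values, where 3.4% and 3.39% of all genes had one in these directions. The highest difference was that of Mia2, which works with Mia3 in the export of bulky cargo (0.51, SE 0.20, adjusted p = 0.765 from limma), named after its values were seen. For any listed gene on chromosome 12, a sequence difference under the probes and a difference in mRNA cannot be told apart, as for Apob. Surf4, a cargo receptor for lipoproteins leaving the endoplasmic reticulum, had -0.27 (SE 0.09, adjusted p = 0.728 from limma), P4hb, the smaller subunit of the microsomal triglyceride transfer complex, -0.19 (SE 0.10), and Mia3, a receptor for bulky cargo, 0.22 (SE 0.09). Of 7 measured genes of receptors and uptake 3 had lower values, with a median of 0.02 and no gene without overlap. Of 8 measured genes of high density lipoprotein and plasma remodelling 7 had lower values, with a median of -0.11. Abca1, which loads lipid onto Apoa1, was the other one, with 0.23 (SE 0.09, unadjusted p = 0.0386, adjusted p = 0.792 from limma), and Lipg, endothelial lipase, had -0.37 (SE 0.18). Of 5 measured genes of plasma lipolysis 2 had lower values, with a median of 0.04.

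Of 14 measured regulators of transcription 5 had lower and 9 higher values, with a median of 0.03, and 4 higher ones had an unadjusted p under 0.05, where 3.39% of all genes did in this direction. Without overlap of the strains, as were 12.3% of all genes, were Ppargc1b, a coactivator, at 0.44 (SE 0.18, adjusted p = 0.792 from limma) and Foxo1, a factor that insulin holds in check, at 0.33 (SE 0.13, adjusted p = 0.759 from limma). Ppargc1b gave 8.93, 8.73 and 8.79 in A/J against 9.1, 8.93 and 9.74 in A/J-12SM mice, so its strains were barely apart. In both genes A/J-12SM replicate 3 was the highest array, at 9.74 for Ppargc1b and 8.78 for Foxo1. Creb3l3 is a liver factor known to activate Apoa4 and Apoc2. Of the 6 genes listed as its targets 3 are members already described (Apoa4, Apoc2 and Apoa5), and since the list was drawn up with the Apoa4 and Apoc2 values known, its counts are no independent evidence. The other 3 targets, given here with their values since they complete the list, had lower values that were not called. Fabp2 had the difference of -0.34 given with the intestinal markers, and Fgf21, a liver hormone, had -0.41 (SE 0.25). Cidec, a lipid droplet protein with a dim signal here, had -1.02 (SE 0.48). Their adjusted p-values from limma were 0.728 for Fabp2, 0.84 for Fgf21 and 0.807 for Cidec. Creb3l3 itself, named after its values were seen, had a difference of 0.11 (SE 0.09) with an adjusted p of 0.879 from limma.

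The genes with the pattern most like that of Apoa4 were sought among 11041 other genes at or above the median brightness. Likeness was the root mean square difference between log2 values over the 6 arrays, after each gene was centred on its own mean, and it counts the difference between strains as well as the spread within them. The nearest 5 were L3hypdh, a dehydratase (0.109), Rsad2 (0.117), Xaf1 (0.117), Ifit1 (0.12) and Ly6e, a surface protein (0.126). Rsad2, Xaf1, Ifit1 and Ly6e are known as interferon-induced genes. L3hypdh and Rsad2 lie on chromosome 12, and the others on chromosomes 11, 19 and 15. L3hypdh gave 8.82, 8.83 and 8.97 in A/J against 7.98, 7.91 and 8.0 in A/J-12SM mice. Their differences were -0.91 for L3hypdh, -0.83 for Rsad2, -0.75 for Xaf1, -0.78 for Ifit1 and -0.98 for Ly6e, of which L3hypdh (adjusted p = 0.0203 from limma) and Ly6e (adjusted p = 0.0391 from limma) were called. Over all genes 0.066% were called. Since these genes were picked for values near those of Apoa4, a called gene, their calls are no independent evidence. For L3hypdh and Rsad2 a sequence difference under the probes and a difference in mRNA cannot be told apart, as for Apob.

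**Figure D5:**
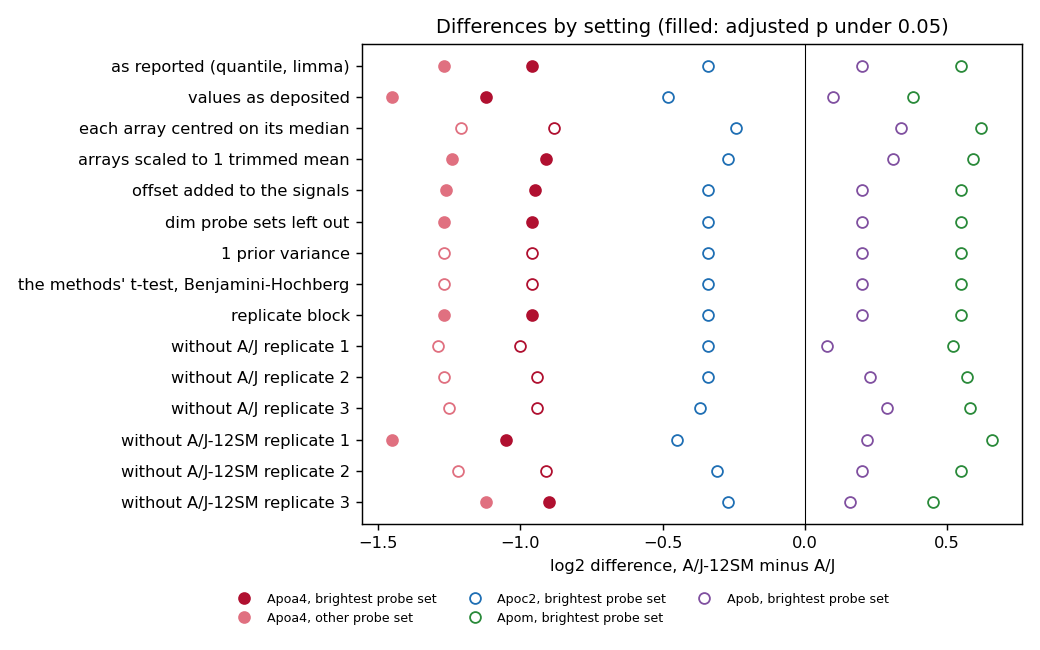
Difference in log2 signal (A/J-12SM minus A/J, x axis) of 5 apolipoprotein probe sets under the reported and 14 other settings (y axis); filled points have an adjusted p under 0.05. The brightest Apoa4 probe set ranges from -1.12 to -0.88 and the other from -1.45 to -1.12, both are filled in 8 of the 15 settings drawn, and Apoc2, Apom and Apob are open in all.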

How the data were processed

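Liver RNA of 3 A/J and 3 A/J-12SM replicates was measured on 1-colour Affymetrix arrays, and the labels gave each array's strain and replicate. The authors deposited intensity values on a linear scale, 1 per probe set and array. The submitters' processing notes name MAS5, while no source used here gives its version and scaling. The values were converted to log2, quantile normalized without 64 control probe sets, and compared over the remaining 45037 by limma 3.58.1, run in R 4.3.3, as a linear model of strain alone in which the prior variance followed brightness. The Benjamini-Hochberg method was used for adjustment. Quantile normalization takes it that the bulk of genes is alike in both strains. Of the probe sets 34945 carried 1 gene of the platform annotation, of which 34741 were matched to GRCm38.p6 by gene number for symbols and positions, 932 carried several and 9160 none.

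All members are reported. Of each other list the called genes are named, or else up to 3 without overlap at or above the median brightness with the largest differences, and the 5 genes most like a called member. The members and lists were chosen with earlier results of these data known. Single probe sets were also compared by exact permutation tests. The alternatives were the deposited values, centring on the median, scaling to 1 trimmed mean, an offset of 9.2 (the 20th percentile of the signals), testing without the probe sets under the 40th percentile of mean signal, 1 prior variance, the methods' t-test, the replicate number as a block, the mean over a gene's probe sets, and leaving out each array. On simulated data with known changes the limma fit recovered large changes, and the share of false calls among all calls was above the nominal level in each run. Precision is limited by there being 6 arrays, and p-values measure the spread between replicates, which may be pools. Promoter windows were read from a RefSeq table. Python 3.11.15 with matplotlib 3.10.9 drew the figures.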

Additional observations from a re-analysis of the deposited data

How the results depend on the processing

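Over 15 alternatives run on single probe sets no Apoa4, Apoc2, Apom or Apob probe set changed direction. Only the other scalings, the offset and the leaving out of single arrays could change a direction. Leaving out dim probe sets, 1 prior variance, the methods' t-test and the replicate block kept each difference as reported, so they do not test it. The count of apolipoprotein probe sets called, 2 as reported, was 0 with each array centred on its median, with 1 prior variance and with the methods' t-test after Benjamini-Hochberg adjustment, 4 with the methods' t-test at an unadjusted p under 0.05, where Apoc2 and Apom joined Apoa4, and 0 to 2 with single arrays left out. The count over all probe sets, 25 as reported, was 47 with the values as deposited (38 lower and 9 higher), 1 with 1 prior variance, 1 with the methods' t-test after adjustment and 2630 before it, and 6 to 23 with single arrays left out. The number of the 10 genes with lower values, 3 as reported, was 6 with the values as deposited and 3 to 5 with single arrays left out. Their median was -0.04 with the values as deposited, 0.20 with each array centred on its median, 0.17 with the arrays scaled to 1 trimmed mean and 0.01 to 0.04 with single arrays left out. With the values as deposited the direction changed for 2 Apoa1 probe sets (-0.02 and -0.01), Apoa5 (-0.05) and Apoc1 (-0.06). Apoc3 changed to 0.13 with each array centred on its median and to 0.10 with 1 trimmed mean. With single arrays left out these ranged from -0.01 to 0.05 and from -0.0044 to 0.05 for Apoa1, from -0.04 to 0.07 for Apoa5, from -0.03 to 0.04 for Apoc1 and from -0.08 to 0.03 for Apoc3. The cause of these changes was not tested. With the replicate number as a block 28 probe sets were called, among them both of Apoa4 (adjusted p = 0.0309 from limma). Deviations of same-numbered arrays from their group means correlated at -0.0565, 0.0892 and 0.156 for replicates 1, 2 and 3, and 3 of 6 arrays correlated best with their own number, so the numbers were not taken as pairs. With the mean over a gene's probe sets 4 of the 10 genes had lower values, with a median of 0.01.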
